A study of Squalius alburnoides and Squalius pyrenaicus with 4 samples.

Results

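The zebrafish star-strand probes of a multi-species microRNA (miRNA) chip were described in 4 forms of the *Squalius alburnoides* complex, a group of hybrid cyprinid fish of Iberian rivers, and each was set against the probe of its guide strand. A probe was taken as a star probe if one of the names printed for it was a zebrafish name ending in an asterisk, and its guide was the probe with the same zebrafish name without the asterisk. By this rule 26 of the 218 zebrafish probes were star probes, of 1155 probes on the chip, and each of the 26 had exactly 1 guide probe. The letters P and A stand for the genome of *S. pyrenaicus* and that of the second ancestor. RNA of adult fish was hybridized for PAA, a triploid hybrid, for PA, a diploid hybrid, and for AA, a diploid non-hybrid form, all 3 labelled *S. alburnoides*, and for PP, labelled *S. pyrenaicus*. Each array held a pool of liver, brain and muscle RNA from about 3 individuals of a form, so that fish and tissues could not be separated. No form had a second array. Differences between forms therefore had no replicate check, and no test between forms was made. The errors given are SE or SD over the spots of a probe on 1 array (log2 scale).

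The layout limits what a difference can be assigned to. PAA and PA shared a slide, as did AA and PP, so the slide cannot be told apart from being a hybrid. On both slides the first of these arrays (PAA, AA) lay in the upper part and the second (PA, PP) below it. The methods of the study place the catch of PP in another river than that of the *S. alburnoides* forms, so wherever PP is compared, river and form cannot be told apart. The study describes AA fish of the complex as male and PAA fish as mostly female, and the sex of the fish sampled is not given in the sources used. In pooled tissue, fewer cells of a type and less miRNA per cell cannot be told apart. Of the markers of the pooled tissues, miR-122 (liver), miR-1, miR-206 and miR-133a (muscle) and miR-9 (brain) were detected on all 4 arrays and miR-124 (brain) on 3. The muscle markers did not run alike over PAA, PA, AA and PP. In that order miR-1 read 1262, 782, 479 and 276, miR-206 read 152, 175, 187 and 208, and miR-133a 143, 176, 122 and 119. Of markers of other cells, miR-451 (red blood cells), miR-375 (pancreas) and miR-126 (endothelium) were detected on all 4 arrays and miR-202 (gonad) on AA and PP. The leukocyte markers differed, with miR-223 on PAA and PP, miR-142b-5p on PAA only and miR-150 on all but PAA. Detection is a weak criterion on this chip, as described below. On AA, miR-206, miR-133a, miR-451, miR-375 and miR-126 read under the 95th percentile of spots printed without a probe. On PA miR-206, miR-133a and miR-150 did. On PP all detected markers but miR-9 did. The part of these cells in the results below was not tested.

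A miRNA precursor folds into a hairpin, and cutting it gives a short duplex of 2 strands. As a rule one strand, the guide, is loaded into the Argonaute protein and pairs with messenger RNAs, while the other, named with an asterisk in the nomenclature of the chip, is mostly degraded. Both strands come from the same hairpin, although a miRNA can be made from several genes whose star strands differ, and some star strands, such as miR-9* and miR-126*, are known to act on targets of their own. The names date from early catalogues, and strands once starred can be abundant, as is known for the strand once named miR-199a* in mammals. The asterisk is used here only as the probe name has it.

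Of the 26 star probes, 18 carried only a zebrafish name and 8 were shared with other species (miR-9*, miR-30e*, miR-126*, miR-129*, miR-140*, miR-181a*, miR-182* and miR-199*). The asterisk did not hold for all species of a probe. The probe of miR-182* was also named miR-182, without asterisk, for both pufferfish species, that of miR-140* was also the miR-140 of cattle, and that of miR-30e* was also the miR-30a-3p of mammals and chicken. Probe sequences were not used here, and a probe's level is not set against that of another, since probes differ in affinity.

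With 2 passing spots required, fewer star probes were detected on AA and PP than on the hybrid arrays, while the numbers of their guide probes were similar on all 4. The order of PA and AA depended on this rule. With at least 3 of 4 spots required, PA fell to 10 star probes, fewer than AA had under that rule. The share of all zebrafish probes passing that rule is not given here, so this fall is not read as a trait of star probes. A probe counted as detected if at least 2 of its 4 spots were kept and had a foreground of at least 2 times the local background. By this rule 20 of the 26 star probes were detected on PAA and 19 on PA but 15 on AA and 11 on PP, that is 76.9%, 73.1%, 57.7% and 42.3%. Over all zebrafish probes the share detected was 77.1% for PAA and 75.2% for PA, and 70.6% and 71.6% for AA and PP. The guide probes of the same hairpins were detected in 18, 21, 19 and 18 cases. The share of star probes was thus near that of all zebrafish probes on PAA and PA and lower on AA and PP, which with 1 array each cannot be tested.

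Of the 15 star probes without detection on PP, 4 kept fewer than 2 spots at the scan, where spots were set aside. The probes of miR-18b*, miR-129*, miR-182* and miR-459* were those 4 and count as not measured, and of the 22 star probes that were measured on PP 50% were detected, against 78.4% of the other measured zebrafish probes. Of the star spots, 24% were set aside on PP and 21.2% on PA, against 10.6% on PAA and on AA. Of all zebrafish spots, 17.1% were set aside on PP and 19.3% on PA, against 7.68% on PAA and 11.1% on AA. On AA no star probe was lost in this way. Zebrafish-only star probes were detected in 13, 12, 9 and 7 of 18 cases and shared ones in 7, 7, 6 and 4 of 8 on PAA, PA, AA and PP. The counts of PP take the 4 probes without a measurement as not detected. Of these, miR-129* and miR-182* were shared, and miR-18b* and miR-459* were zebrafish-only. The same split over all zebrafish probes is not given here.

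Detection as such was a weak criterion on this chip. Probes made only for invertebrate miRNAs, which have no named target in these fish, passed the same rule in 67.6% of cases on PAA and 72.5% on PA, with 63.7% on AA and 73.1% on PP. Spots printed without a probe (BLANK) had a 95th percentile of 103, 209, 202.8 and 516 intensity units in that order, called the BLANK level here. Their medians were 41.5, 38, 36 and 49, over 40, 32, 40 and 34 kept spots, so the level is set by the brightest of them. Above the BLANK level lay 20 star probes on PAA and 9 on PA, against 5 on AA and 0 on PP, where the share over all zebrafish probes was 76.6%, 40.4%, 30.3% and 14.2%. A star value of PP is thus a reading within the range of its BLANK spots, although above their median.

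**Figure D1:**
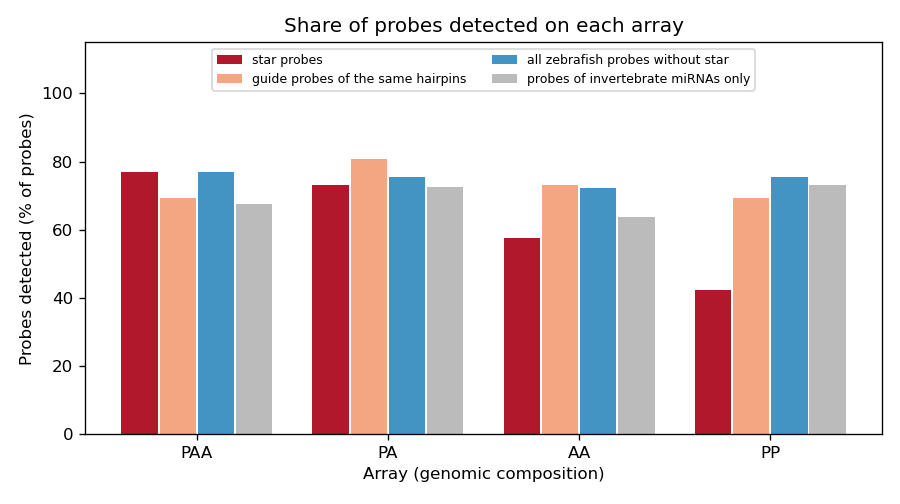
Share of probes detected (in %, vertical axis) on the array of each genomic composition (horizontal axis), for the 26 star probes, the 26 guide probes of the same hairpins, the 192 other zebrafish probes and the 182 probes of invertebrate miRNAs only. The bar of the star probes is at 76.9% on PAA and 42.3% on PP, while the bar of the other zebrafish probes stays between 72.4% and 77.1%.

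By hairpin, both strands were detected in 14 of 26 cases on PAA and 16 on PA, with 10 on AA and 9 on PP. Only the star was detected in 6, 3, 5 and 2 cases and only the guide in 4, 5, 9 and 9. Probes that were not measured count here as not detected. On PP these were miR-459*, among the 9 with the guide only, and miR-18b*, miR-129* and miR-182*, among those with neither strand. On PA the guide of miR-203b was not measured. On both AA and PP, the guide without its star was detected for miR-27c, miR-30e, miR-126, miR-132, miR-202, miR-210 and miR-723. Among the 26 star probes, 10 were detected on all 4 arrays (miR-9*, miR-10a*, miR-10d*, miR-15a*, miR-17a*, miR-19a*, miR-133a*, miR-140*, miR-181a* and miR-199*) and 3 on none (miR-20a*, miR-30e* and miR-202*). Of the 26 guide probes, 13 were detected on all 4 arrays and 2 on none. These counts were not taken over all zebrafish probes. Both strands were detected on all 4 arrays for 6 hairpins, miR-9, miR-10d, miR-17a, miR-19a, miR-133a and miR-181a.

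Star signals were low. Over the detected star probes the background-subtracted signal ran from 107 to 970 on PAA, 125 to 876 on PA, 108 to 697 on AA and from 111 to 467 on PP, with medians of 193, 203, 148 and 203. The lowest detected zebrafish signal was 94.4, 111, 99.7 and 110 in that order. Within 2-fold of this lowest signal lay 9 of 20 detected star probes on PAA, 11 of 19 on PA, 10 of 15 on AA as well as 6 of 11 on PP. The guide probes of the same hairpins had medians of 241, 204, 150 and 331. Of those detected, 7 of 18, 11 of 21, 12 of 19 and 7 of 18 lay within 2-fold of the lowest signal. On PA and AA low signal was thus not particular to the star probes. The median SD over the spots of a star probe was 0.15, 0.25, 0.15 and 0.63, and on PP this was wider than the 0.34 of all zebrafish probes.

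**Figure D2:**
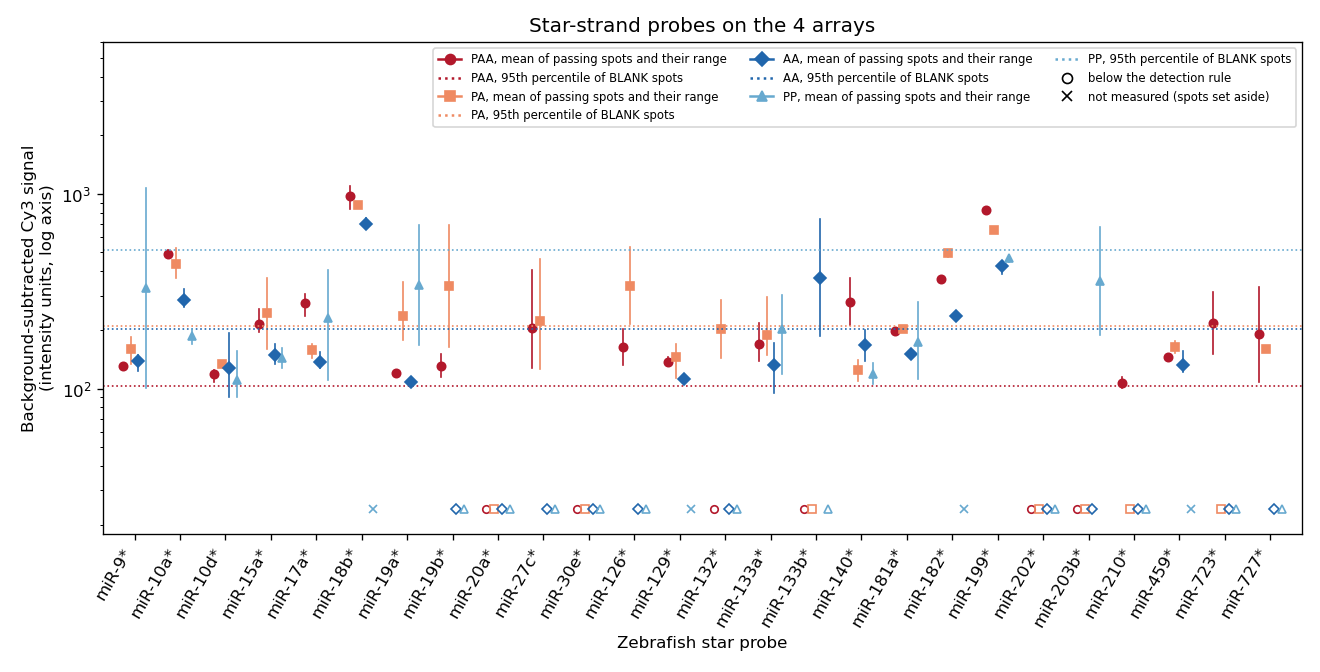
Background-subtracted Cy3 signal (intensity units, log axis) of each star probe on the arrays of PAA, PA, AA and PP, as the mean of the passing spots with a line from the lowest to the highest of them. Dotted lines mark the 95th percentile of the BLANK spots of each array, at 103 on PAA and 516 on PP, and open symbols and crosses at the bottom mark probes below the detection rule or not measured. All 11 star probes detected on PP lie below its dotted line.

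The star probes of miR-18b*, miR-199* and miR-10a* each had their highest unscaled reading on PAA and lay above the BLANK levels of PAA, PA and AA. The probe of miR-18b*, whose guide belongs to a family linked to cell proliferation, read 970 on PAA, 876 on PA and 697 on AA, each with a spot SD of at most 0.19, and was not measured on PP. The unscaled spots of PAA and PA overlapped. Quantile normalization gave 0.38 ± 0.10 for PAA against PA, and scaling on the control spots labelled Homo gave −0.24. For PAA against AA the difference was 0.23 ± 0.11, and −0.16 under median scaling. Its guide probe was below the detection rule on PAA and PP, read 352 on PA with an SD of 1.62, and 142 on AA.

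The probe of miR-199*, the other strand of a miRNA known from connective tissue and mesenchyme, read 825 on PAA and 652 on PA, against 427 on AA and 467 on PP. Its passing spots agreed closely, with SDs between 0.03 and 0.11, and those of PAA did not overlap those of any other array. On PAA and on AA 1 further kept spot read 0 and did not pass. With quantile normalization the log2 difference was 0.53 ± 0.05 between PAA and PP and 0.43 ± 0.07 between PAA and AA. The excess on PAA over these 2 arrays had the same direction under every scaling tried, while that over PA (0.48 ± 0.04) was −0.04 with scaling on the control spots labelled Homo. Without the filter on dim spots the difference from PP was −1.80, as a spot of PAA that read 0 then entered at 1. Its guide probe was at the lower limit throughout, with 138 on PAA, 137 on PA, 195 on PP and no detection on AA.

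The probe of miR-10a*, from a hairpin encoded in a Hox gene cluster, had lower unscaled readings in the order PAA, PA, AA and PP. It read 488 on PAA and 436 on PA, then 284 on AA and 186 on PP, with 4 passing spots on each array and SDs of 0.06, 0.25, 0.13 and 0.11. The spots of PAA and PA overlapped, and PAA against PA was −0.22 with scaling on the Homo spots. After quantile normalization PA was close to AA (0.037 ± 0.14), with spots that overlapped. PP was lower than all others with no overlap of spots, and the log2 difference from PP was 1.40 ± 0.06 for PAA, 1.18 ± 0.14 for PA and 1.14 ± 0.09 for AA after quantile normalization. These 3 differences kept their direction under every scaling tried, although that between AA and PP was 0.55 with scaling on the Homo spots. The PP value itself was under the BLANK level of that array. The guide probe of miR-10a read 128 on PAA, 142 on PA and 150 on AA, and on PP it was below the detection rule, at least 1.16-fold below PAA in unscaled signal (1.24-fold after quantile normalization). This bound is against the lowest detected signal of PP and does not hold against its BLANK level.

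The other star probes detected on all 4 arrays lay near the lower limit. The probe of miR-15a*, of a hairpin whose guide acts on the cell cycle and apoptosis, read 215 on PAA and 243 on PA, against 148 on AA and 144 on PP, so that in unscaled signal the hybrid arrays were above the non-hybrid ones, with spots of PA that overlapped those of AA and PP. Its guide was below the rule on PAA and read 161 on PA, then 167 on AA and 158 on PP. The star strand of miR-140, known from cartilage, read 280 on PAA and 125 on PA, with 167 on AA and 119 on PP, from 2 or 3 passing spots each. The guide probe of miR-140 was detected on no array.

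In the miR-17-92 type clusters, which are linked to proliferation, miR-17a* read 274 on PAA and 159 on PA, against 137 on AA and 230 on PP. PAA was thus above PA and AA with no overlap of spots, and the 3 spots of PP ran from 111 to 408. From the same clusters miR-19a* read 121 on PAA and 237 on PA, with 108 on AA and 341 on PP, where the value rested on 2 spots at 168 and 693. The spots of PA were above those of PAA and of AA without overlap.

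For the remaining 4 the arrays differed little or the spots were discordant. The probe of miR-133a*, of a muscle miRNA, read 170 on PAA and 188 on PA, against 132 on AA and 203 on PP, and that of miR-181a*, of a miRNA known from lymphocytes and brain, read 197, 202, 151 and 173. The probe of miR-10d* read 119, 134, 128 and 111. The star strand of the neural miR-9, which represses a partner of the neuronal silencing factor REST in mammals, read 130 on PAA and 160 on PA, with 139 on AA and 329 on PP, but the PP value rested on 2 spots at 101 and 1069.

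Among star probes detected on some arrays only, 4 were seen on both hybrid arrays and on neither non-hybrid array. How many of all zebrafish probes had this pattern was not counted, so it is not read as a trait of star probes. The probe of miR-27c*, of the miR-23/27/24 clusters, read 204 on PAA and 222 on PA, and on AA and PP the means of its kept spots were 76.3 and 61.8. Its guide was among the brightest probes and read 15136 on PAA and 17671 on PA, against 16996 on AA and 17121 on PP, a range of 1.17-fold. Against the lowest detected signal of AA and PP, the star on both hybrid arrays was at least 1.86-fold higher in unscaled signal and at least 1.99-fold higher after quantile normalization. Against the BLANK level of AA the unscaled bounds were 1.007-fold for PAA and 1.09-fold for PA. The BLANK level of PP was above both star values, so against it no excess can be stated. The spots of miR-27c* on PAA ran from 128 to 408 and on PA from 126 to 465, so this difference is that of 3 discordant spots against spots near background.

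The endothelial miR-126* read 163 on PAA and 338 on PA, from 2 spots each, and was below the rule on AA and PP, while its guide was detected on all 4, with 355 on PAA, 358 on PA, 335 on PP and a lower 165 on AA. On PP the star probe still had a kept spot at 169, and the mean of its 4 kept spots was 147. Over all kept spots, passing or not, the mean was 114 on PAA and 214 on PA, so on this measure PAA was under PP. No lower bound against PP is therefore given. The star values of PAA and PA were also under the BLANK level of PP. The probe of miR-19b* read 131 on PAA and 337 on PA (spots at 163 and 696), with a guide detected on no array. That of miR-727* read 190 on PAA and 159 on PA, and its guide was detected on PA and AA only.

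The 4 star probes that were not measured on PP were detected on the other arrays. The probes of miR-129*, known from brain, and miR-459* read 136 and 146 on PAA, 146 and 164 on PA and 112 and 132 on AA. Neither had a guide detected on AA, and the guide of miR-129 was detected on PAA only. The probe of miR-182*, of a cluster expressed in sensory organs, read 366 on PAA, 495 on PA and 237 on AA. Its spots ran from 361 to 372, from 474 to 517 and from 234 to 240, so that no array overlapped another.

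A further 5 star probes were detected on a single array, in each case from 2 spots. Of the 26 guide probes, 2 were detected on a single array, and the count over all zebrafish probes was not taken. The probe of miR-132*, whose guide follows neuronal activity, read 203 on PA, that of miR-133b*, of a muscle hairpin, 371 on AA (spots at 186 and 739), and that of miR-203b*, of a skin miRNA, 358 on PP (188 and 680). The probes of miR-210*, whose guide is induced by low oxygen, and miR-723* read 107 and 217 on PAA. The guides of miR-132, miR-133b, miR-210 and miR-723 were each detected on all 4 arrays. The star and guide probes of these hairpins therefore differed in where they passed the rule, in values that rested on the smallest number of spots the rule allows.

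**Figure D3:**
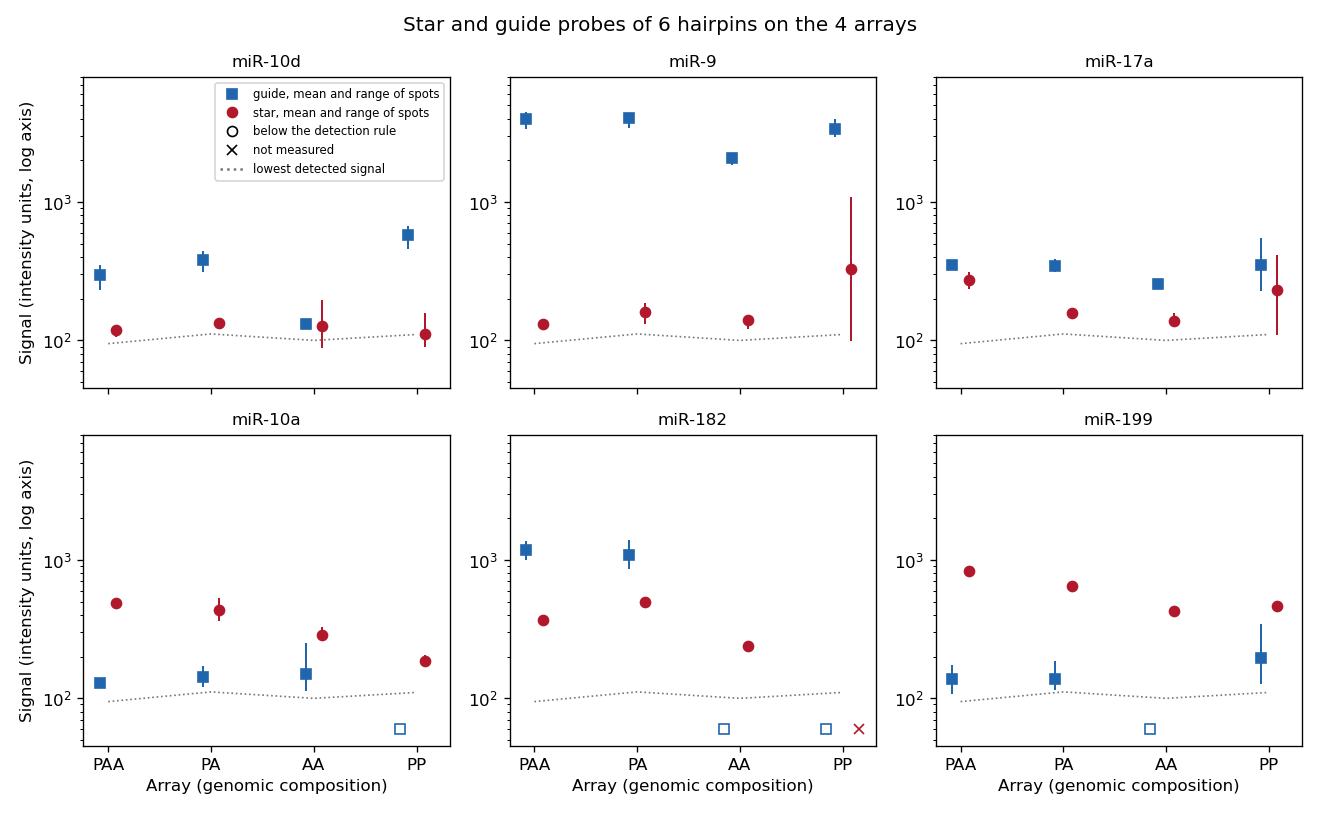
Background-subtracted signal (intensity units, log axis) of the star and guide probes of 6 hairpins on the 4 arrays, as the mean and the range of the passing spots, with the lowest detected zebrafish signal of each array as a dotted line and open symbols or crosses for probes below the rule or not measured. Only the course over the arrays can be compared between the strands, not their heights. For miR-10d the guide runs from 131 on AA to 576 on PP while the star stays between 111 and 134.

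For each hairpin the change of the star between 2 arrays was then set against the change of its guide. The difference of both log2 changes does not depend on the scaling of the arrays to a common level, since any factor of an array enters both strands alike. It was computed where both strands were detected on both arrays, which left 11 hairpins for PAA against PA, 9 for PA against AA, 8 for PA and PP and 7 for each of the 3 other pairs. A positive value means that the star rose more, or fell less, than the guide on the array named first. For PAA against PA 3 of the hairpins had all 4 values above the BLANK levels (miR-27c, miR-126 and miR-182), and for the other 5 pairs none had.

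The difference of largest size between the strands was that of miR-10d, another hairpin of the Hox clusters. Its guide probe read 298 on PAA and 380 on PA, with 131 on AA and 576 on PP, a range of 4.39-fold, and the star 119, 134, 128 and 111, a range of 1.2-fold. The guide was lowest on AA with no overlap of spots, while the star spots of AA ran from 90 to 192 and overlapped those of all other arrays. The star change exceeded the guide change by 2.33 ± 0.43 for AA against PP, by 1.05 ± 0.32 for PAA against PP and by 0.86 ± 0.32 for PA against PP. Against AA it fell short, by −1.28 ± 0.35 for PAA and −1.47 ± 0.35 for PA, and between PAA and PA the difference was 0.19 ± 0.20. The star was above the BLANK level on PAA only and within 1.28-fold of the lowest detected signal of each array, and the guide was under the BLANK level on AA, so the sizes of these differences are not firm.

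For the brain miRNA miR-9 the guide read 4010 on PAA and 4026 on PA, against 2089 on AA and 3375 on PP, all above the BLANK levels, with AA below the others and no overlap of spots. Between PAA, PA and AA the star readings of 130, 160 and 139 differed less. They were 1.38, 1.44 and 1.40 times the lowest detected signal of their arrays, and under the BLANK level on PA and AA. The sizes of the differences that follow are therefore not firm. The star change fell short of that of the guide by −1.04 ± 0.17 for PAA against AA and by −0.75 ± 0.21 for PA against AA. Without the filter on dim spots the second of these turned to 1.03, as a kept spot of miR-9* on AA that read 0 then entered at 1. Under quantile normalization the differences against AA were −1.62 for PAA and −1.66 for PA. With PP the errors were 1.71 in each pair, because of the 2 discordant star spots of that array.

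In miR-17a the star differed more than the guide between PAA and the 2 other *S. alburnoides* arrays. The guide read 352 on PAA and 346 on PA, with 255 on AA and 348 on PP. Between PAA and PA its change was 0.02 ± 0.07 without scaling, while that of the star was 0.79 ± 0.13, a difference of 0.77 ± 0.15. Between PAA and AA both strands were higher on PAA, the star by 1.002 ± 0.14 and the guide by 0.47 ± 0.05 without scaling, which left 0.54 ± 0.15. Between PA and AA the difference was −0.23 ± 0.13. On PA and AA the star lay under the BLANK level, so its size on these arrays is not firm.

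The strands of miR-182 also parted. Between PAA and PA the star was lower on PAA by −0.44 ± 0.06 without scaling while the guide differed by 0.12 ± 0.21, a difference of −0.55 ± 0.22 with all values above the BLANK levels. On AA the guide was below the detection rule while the star was detected on all its kept spots. Without scaling, the guide on PA was at least 10.9-fold above AA against the lowest detected signal, and at least 5.38-fold against the BLANK level there, while the star was 2.09-fold higher on PA than on AA. As the name of the star probe holds the unstarred miR-182 of the pufferfish, which strand it reads in these fish cannot be settled from the name.

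For miR-10a the star read lower from PAA to PP in unscaled signal. Its change exceeded that of the guide by 1.02 ± 0.37 for PAA against AA, 0.70 ± 0.41 for PA against AA and 0.32 ± 0.19 for PAA against PA. The guide spots overlapped in all 3 pairs. For miR-199 the difference was 1.32 ± 0.46 for PAA against PP, 0.99 ± 0.47 for PA against PP and 0.33 ± 0.28 for PAA against PA. It came from a star that was brighter on the hybrid arrays in unscaled signal and a guide whose spots overlapped. After quantile normalization miR-199* on PA was close to AA (−0.048 ± 0.07) and to PP (0.056 ± 0.04), with spots that overlapped. For miR-15a it was 0.77 ± 0.34 for PA against AA.

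Other differences towards the guide had errors that were wide against their size. That of miR-126 was −1.03 ± 0.74 for PAA against PA, with 2 star spots on each array. That of miR-19a was −0.81 ± 0.71 for PAA against PA, −1.65 ± 1.04 for AA against PP, −1.85 ± 1.07 for PAA against PP and −1.05 ± 1.22 for PA against PP. For miR-18b it was −0.98 ± 0.96 for PA against AA. None of these reached 2 times its SE.

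The 2 remaining hairpins with both strands on all arrays gave small differences in the main setting. For the muscle miRNA miR-133a, the guide read 143 on PAA and 176 on PA, against 122 on AA and 119 on PP, and star minus guide change lay between −0.68 ± 0.39 (PA against PP) and 0.15 ± 0.33 (PAA against PA). For miR-181a the guide read 10043 on PAA and 10768 on PA, with 10589 on AA and 12534 on PP, the star and guide ranges over the forms were 1.34-fold and 1.25-fold, and the differences lay between 0.04 ± 0.88 (AA against PP) and 0.51 ± 0.84 (PAA against PP). In this setting no pair of arrays gave either hairpin a difference beyond 2 SE. Under quantile normalization that of miR-181a was −0.27 for PAA against AA. When set-aside spots were included, that of miR-133a moved to 1.81 for PAA against AA and 0.96 for PAA against PA. It then was 0.85 for PA against AA and 0.60 for PAA against PP.

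**Figure D4:**
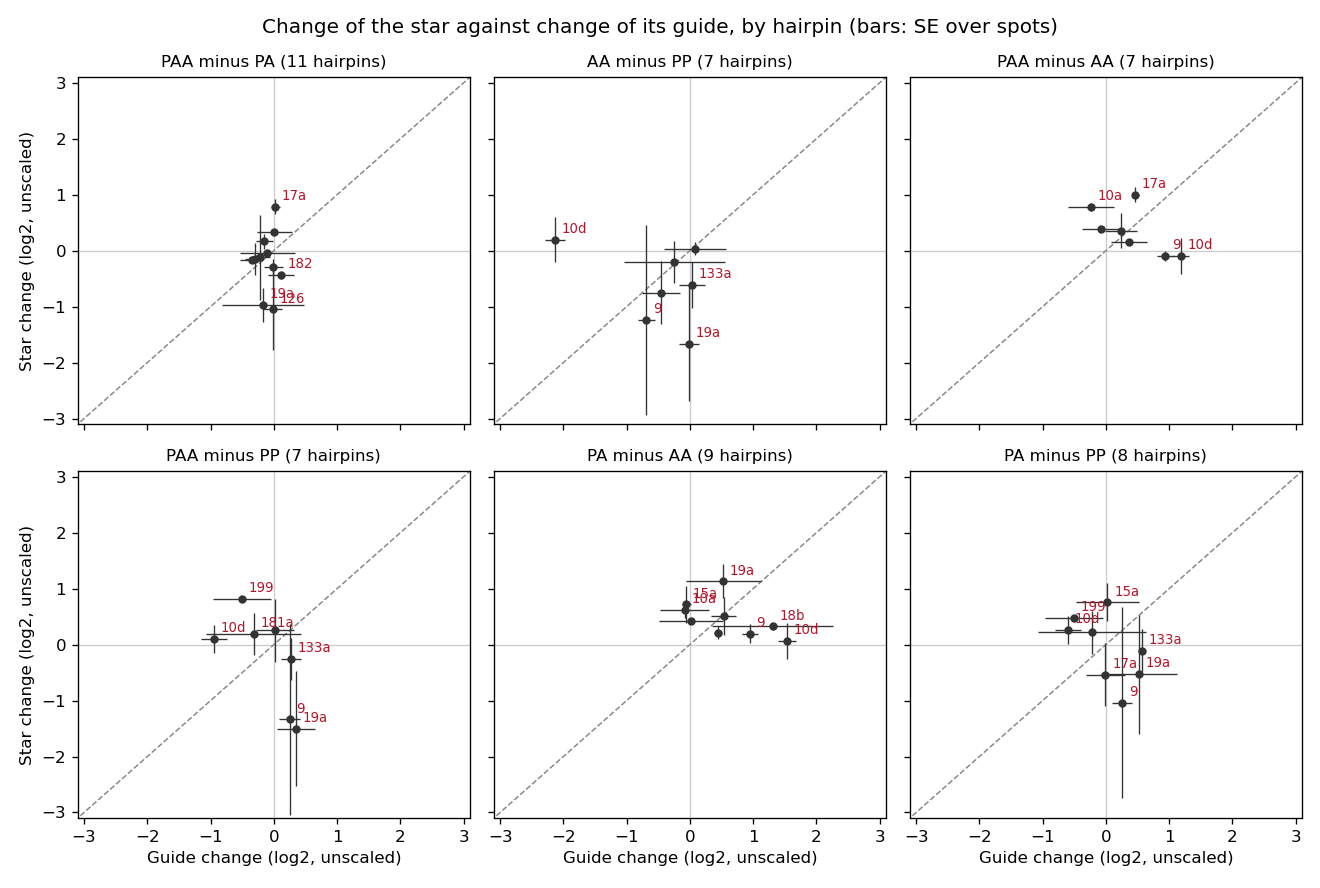
Change of the star (vertical axis) against the change of its guide (horizontal axis), both as unscaled log2 differences, for the hairpins detected on both arrays in each of the 6 pairs of arrays. Bars are SE over spots, the dashed line marks equal change, and hairpins with a difference of at least 0.5 between the strands are labelled by number. For AA minus PP the point of miR-10d lies at a guide change of −2.14 and a star change of 0.20.

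Over the hairpins of a pair, the medians of star minus guide change were close to 0. The median of star minus guide change was 0.10 for PAA against PA, −0.30 for AA against PP, 0.12 for PAA against AA, 0.24 for PAA against PP, −0.03 for PA against AA and −0.04 for PA against PP. In the same order 10 of 11, 5 of 7, 4 of 7, 3 of 7, 8 of 9 and 6 of 8 hairpins lay within 2-fold, and 2, 1, 4, 2, 3 and 2 were beyond 2 SE. As a description across hairpins that share both arrays and mostly lie near the lower limit, Pearson's r between star change and guide change was 0.06 (n = 11), −0.39 (n = 7), −0.65 (n = 7), −0.68 (n = 7), −0.53 (n = 9) and −0.56 (n = 8), and Spearman's rho 0.14, −0.04, −0.64, −0.71, −0.65 and −0.48. The pairs share arrays, so these values are not independent of each other.

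The opposite arms of hairpins named 3p and 5p gave a comparison without asterisks. For miR-460 both arms were bright, with 664 and 730 on PAA, 726 and 735 on PA and 699 and 541 on PP for 3p and 5p, and 431 for 3p on AA, where 5p was not measured. The change of 3p minus that of 5p was −0.12 ± 0.13 for PAA against PA, −0.51 ± 0.23 for PAA against PP and −0.39 ± 0.26 for PA against PP. For miR-142a it was between −1.05 ± 1.26 and 1.17 ± 0.89.

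The star probes were also compared between the forms on their own, after quantile normalization over the zebrafish probes. PAA and PA, which ask what goes with ploidy in hybrids, shared 18 detected star probes. Of these 1 was more than 2-fold higher on PAA (2.04% of all zebrafish probes were) and 1 more than 2-fold lower (1.36% of all), against 3.4% of all beyond 2-fold. A further count, of probes whose spots did not overlap, was 7 (31.3% of all), with 5 higher on PAA (19.7% of all) and 2 lower (11.6% of all). The median difference was 0.01, next to 0.02 over all zebrafish probes. The probe of miR-182* (−0.43 ± 0.06) was among the 2 that were lower, while miR-18b* (0.38 ± 0.10) and miR-181a* (0.08 ± 0.04) were among the 5 that were higher. With scaling on the Homo spots, which moved the median of all zebrafish probes to −0.43, miR-18b* was at −0.24 and miR-181a* at −0.42. The unscaled spots of both probes overlapped between these arrays. For miR-181a* the difference was also −0.18 under median scaling, −0.12 under total signal scaling and −0.03 without scaling.

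AA and PP, which compare the parental genomes, shared 10 star probes. Beyond 2-fold lay miR-10a*, higher on AA (13.8% of all zebrafish probes were), and miR-19a*, lower with −1.50 ± 1.02 (10.8% of all), against 24.6% of all in either direction, and 4 did not overlap, against 47.7%. The non-overlapping ones were these and, higher on AA, miR-140* (0.76 ± 0.28) and miR-15a* (0.34 ± 0.11, and −0.026 with scaling on the Homo spots). The median was 0.16 (0.01 over all).

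Between PAA and AA, which share the A genome, 14 star probes could be compared and 12 were higher on PAA, against 62.9% of all zebrafish probes, with a median of 0.22 (0.12 over all) that turned to −0.21 under median scaling and to −0.052 when the Homo spots set the scale. None was beyond 2-fold (12.1% of all), and 7 did not overlap (49.3% of all), 6 of them higher on PAA (29.3% of all) and 1 lower (20% of all). The higher ones were miR-10a*, miR-17a*, miR-129*, miR-181a*, miR-182* and miR-199*, and the lower one was miR-9* (−0.35 ± 0.10). Under median scaling 3 of those higher turned, miR-129* to −0.36, miR-181a* to −0.25 and miR-182* (0.18 ± 0.02 in the main setting) to −0.01, and with the Homo spots miR-129* was at −0.20 and miR-181a* at −0.10.

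Between PAA and PP 8 of 10 star probes were higher on PAA, against 58.4% of all zebrafish probes, with a median of 0.39 (0.09 over all), which was −0.33 with scaling on the Homo spots. Beyond 2-fold were miR-10a* and miR-140* (1.201 ± 0.42) on the higher side (18.2% of all) and miR-19a* and miR-9* on the lower (11.7% of all), against 29.9% of all zebrafish probes in either direction, and 5 did not overlap (50.4% of all). For the diploid hybrid, 14 star probes could be compared with AA (median 0.02, 0.01 over all), 0 beyond 2-fold (9.77% of all) and 5 without overlap (47.4% of all), among them miR-19a* (0.92 ± 0.30) and miR-182* (0.61 ± 0.06) on the higher and miR-140* (−0.82 ± 0.32) on the lower side. Of the 10 shared with PP (median 0.03, 0.02 over all), miR-10a* was more than 2-fold higher on PA (13.7% of all were) and miR-9* more than 2-fold lower (11.5% of all), against 25.2% of all in either direction, and only miR-10a* did not overlap (38.9% of all). For PAA against PA 7 of 18 star probes did not overlap, somewhat above the 31.3% of all zebrafish probes. Among the 7, miR-18b* and miR-181a* overlapped in unscaled signal, so this is not read as a trait of star probes. In the other pairs the share was near or below that of all zebrafish probes.

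Probes of other vertebrates with the same star name gave a second reading for 5 star probes, and it differed from the zebrafish probe for 3. The mouse miR-133a* probe read 175 on PAA and 218 on PA, against 184 on AA and 206 on PP, and it was detected on all 4 arrays like the zebrafish probe. The human and chicken miR-202* probe was below the rule on all 4 arrays, as the zebrafish probe was. The mouse miR-30e* probe, by contrast, read 707 on PAA, 757 on PA and 452 on AA and was not measured on PP, where the zebrafish-named probe was below the rule on all 4 arrays.

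The rat miR-20a* probe read 719 on PAA and 510 on PA, then 319 on AA and 287 on PP, with SDs of at most 0.23, while the zebrafish probe was below the rule throughout. The rat miR-140* probe was detected on PA at 178 and on PP at 335 and was below the rule on PAA and AA, the arrays on which the zebrafish probe read highest. For these 3 hairpins the reading of the star strand depended on the probe.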

How the data were processed

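The authors labelled total RNA with Cy3, hybridized it to a multi-species miRNA chip and scanned it in 1 colour. Their deposited scanner files hold the foreground and local background intensity of each of 5040 spots, not yet background-subtracted, and a column of other values (1 or 0), which the deposited value table shows to be 1 for spots kept and 0 for spots set aside. That table holds intensity values on a linear scale. They equalled, within 0.1%, the mean foreground of the kept spots, with no background subtracted, times a factor per array (PAA 1, PA 0.943, AA 1.18, PP 0.963). How the factors were chosen is unknown. It lists 23 to 25 star probes an array, of which 5 or 6 had no spot at 200% of background.

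The background of each spot was subtracted. Spots that were kept and had a foreground of at least 2 times background passed, and their log2 signals were averaged for each probe and given as an intensity by the antilog. A probe with fewer than 2 kept spots is not measured. Differences of single probes were quantile-normalized over the detected zebrafish probes, and star minus guide changes were left unscaled. Lower bounds are against the lowest detected signal or, if higher, the mean of the dim probe's kept spots. Spots of a probe on 2 arrays overlap if their ranges do. Python 3.11.15, numpy 2.4.6, pandas 2.3.3 and, for normexp, limma 3.58.1 in R 4.3.3 were used, and the calculation was tested on simulated data. The simulated probes were mostly brighter than the star probes and had all spots kept, so readings near the lower limit were not covered. With 1 array per form neither a test was made nor a batch term could be fitted, so the number of arrays sets the limit of precision. The alternatives were other scalings (median, total signal, Homo control spots, none, and quantile normalization for star minus guide changes), dim spots not filtered (values under 1 set to 1), normexp background (offset of 50), spots set aside included, at least 3 of 4 spots, values above the BLANK level, the median of spots, and the value table. Pairs with a spot SD of at most 0.5 were added after seeing the data.

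Every star probe is named with its detection, and the 3 largest star minus guide changes each way are named for PAA against PA and AA against PP, the 2 largest for the other pairs, as are the hairpins with both strands on all 4 arrays. Other values of a star probe or its guide were chosen after they were seen. The members, lists and rules were chosen with earlier results of these data known. Probe sequences and genome coordinates were not used here.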

Additional observations from a re-analysis of the deposited data

Results flagged for a closer look

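A signal appeared in spots that the comparisons did not use. On PP, 3 of the 4 spots of miR-459* were set aside at the scan. They had a mean signal of 727, with single spots from 130 to 2867, above the BLANK level of 516 on that array, while the spot that was kept read 203, under that level. The other star probes without a measured value on PP had lower means in their set-aside spots, 504 for miR-18b*, 480 for miR-182* and 307 for miR-129*, all under that level. The sources used here do not say why the spots were set aside.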

How the results depend on the processing

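No paired analysis was possible because each form had 1 array. Requiring 3 of 4 spots lowered the detected star probes on PA from 19 to 10, fewer than on AA under that rule. The share of all zebrafish probes under that rule is not given here. Requiring a value above the BLANK level lowered the detected star probes to 9 on PA, 5 on AA and 0 on PP. By construction both remove dim or partly measured probes. The median change of the star probes moved with the scaling. For PAA against PA it was −0.52 with the Homo spots, which moved all zebrafish probes to −0.43. For PAA against AA it was −0.21 with median scaling (all probes −0.35), −0.052 with the Homo spots (all probes −0.19) and 0.43 without scaling (all probes 0.29), for PAA against PP −0.33 with the Homo spots (all probes −0.39), and for PA against AA 0.39 with total signal scaling (all probes 0.32) and 0.40 without scaling (all probes 0.33). Star minus guide change had a median of −0.68 over 15 hairpins for PAA against PA and of −0.53 over 10 for PAA against AA when set-aside spots were included, and of −0.55 over the 3 hairpins above the BLANK levels for PAA against PA. The other 5 pairs had no such hairpin. The cause was not tested. The value of miR-199 for PAA against PP turned from 1.32 to −1.10 without the filter on dim spots, as a spot of miR-199* on PAA read 0 and entered at 1. For the same spot the value for PAA against PA went from 0.33 to −2.09. For miR-9, with star spots of PAA and AA that read 0, it went from −0.75 to 1.03 for PA against AA and from −0.29 to −2.04 for PAA against PA. The values of miR-10d kept their direction in all 6 pairs and were 3.1 for AA against PP, 1.81 for PAA against PP and 1.74 for PA against PP with set-aside spots included. Of the 102 alternative values of detection counts and medians, 88 stayed within the spread between spots or, for counts, within 1.5-fold. Values of single star probes and hairpins were less stable. Of their alternative values 685 stayed within the spread and 205 moved beyond it. A further 1, that of miR-199 for PAA against PP, was reversed. The dim star signals and the single array per form limit all results.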
